A study of Mus musculus with 6 samples.

Results

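The genes described here are claudins and other tight junction genes of the small intestinal epithelium, namely Cldn2, Cldn3, Cldn4, Cldn7, Cldn15, Cldn23, Tjp1, Ocln and F11r. They are 9 of the 32285 features of the count tables, were chosen by gene symbol, and were all found. Tight junctions seal the space between neighbouring epithelial cells. Claudins are their membrane-spanning strands and set which ions pass, since some claudins form pores and others tighten the seal. Occludin and the junctional adhesion molecule JAM-A share the strand region, and ZO-1 links the strands to actin. In the small intestine new cells arise in the crypt, move up the villus and are shed at its tip, and junction proteins are known to differ along this path.

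Single cells of the small intestinal mucosa were sequenced from 3 control littermates, which the labels call wild-type, and 3 IE-HuR-/- mice, 1 droplet library per animal. HuR, encoded by Elavl1, binds AU-rich stretches in the 3′ ends of many mRNAs. The mice were C57BL/6, 6 to 8 weeks old and fasted for 24 hours. Both groups carried the HuR fl/fl alleles according to the methods, and only the IE-HuR-/- mice carried the Cre driven by the villin promoter, which is active in the epithelium and not in the lamina propria. Villus-rich and crypt-rich cell fractions were combined before loading, so that the share of a cell type in a library depends on how these fractions mixed.

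Cells were sorted into classes by the share of their unique molecular identifiers (UMIs) on marker lists that hold none of the 9 genes. The 60706 barcodes held 428980031 UMIs, of which 59518012 to 91818560 belonged to each library. The gates found 13757 enterocyte-gated cells, of which 2503 were lower-villus-gated, 2297 tip-gated and 8957 outside both villus gates, besides 129 crypt-gated, 980 goblet-gated, 220 enteroendocrine-gated and 137 tuft-gated cells. Only 12 cells were Paneth-gated and are not described. The crypt-gated cells carried the stem cell marker Olfm4 at 1116 to 2071 CPM (UMIs of a gene scaled to the summed UMIs of the class, as counts per 1e6), against at most 0.534 CPM in enterocyte-gated cells, and the tip-gated cells carried Ada, an enzyme of purine breakdown, at 12630.1 CPM or more, against at most 104 CPM in lower-villus-gated cells. Olfm4 and Ada are on the lists that set these gates, so that their levels describe the selection and do not check it. The lower-villus list was weaker, since its members Gsdmc2, Gsdmc3 and Gsdmc4 were close to 0 in enterocytes. T or NK cells, 3936 in number, served as the class that should lack the epithelial genes. Libraries shared 22 to 44 barcodes per pair.

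Elavl1 RNA was not called lower under the IE-HuR-/- label in any class tested. In enterocyte-gated cells Elavl1 stood at 28.7, 30.1 and 28.5 CPM in the controls and at 30.5, 30.5 and 31.0 CPM in the libraries labelled IE-HuR-/-, and was called higher in the latter (log2 fold change 0.27 ± 0.05, edgeR adjusted p 2.6e-05). That fold change was taken after the TMM scaling described below. Unscaled, Elavl1 averaged 29.1 CPM in the controls and 30.7 CPM in the others. In crypt-gated cells it stood at 61.4, 56.7 and 84.6 CPM against 118, 90.9 and 104 CPM, and in goblet-gated cells at 28.7, 28.1 and 27.8 CPM against 20.9, 26.5 and 27.8 CPM. The sources used here do not say which part of the gene the lox sites flank, so that RNA from outside that part checks nothing, and the groups are therefore called by their labels throughout. The counts measure RNA and not protein. By immunostaining, the paper reports that HuR protein was nearly lost from epithelial cells of the IE-HuR-/- small intestine.

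The promoters of Cldn2 and Cldn4 are shown because these genes marked the opposite ends of the crypt to villus axis in these data. Each is the 300 bases from 250 before to 50 after the RefSeq start, build GRCm38.p6, with matches to any of the searched motifs in capitals. Cldn2 (chrX:139800558-139800857, plus strand) held TTTATG, the letters used here for CDX factors, and TATAAA, the TATA box.
Cldn2 promoter: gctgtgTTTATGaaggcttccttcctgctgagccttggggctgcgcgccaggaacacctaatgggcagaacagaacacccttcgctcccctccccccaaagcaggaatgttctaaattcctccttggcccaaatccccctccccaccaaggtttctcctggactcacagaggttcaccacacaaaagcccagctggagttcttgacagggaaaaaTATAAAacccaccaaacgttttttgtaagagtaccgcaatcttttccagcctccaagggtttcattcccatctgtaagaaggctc
Cldn4 promoter: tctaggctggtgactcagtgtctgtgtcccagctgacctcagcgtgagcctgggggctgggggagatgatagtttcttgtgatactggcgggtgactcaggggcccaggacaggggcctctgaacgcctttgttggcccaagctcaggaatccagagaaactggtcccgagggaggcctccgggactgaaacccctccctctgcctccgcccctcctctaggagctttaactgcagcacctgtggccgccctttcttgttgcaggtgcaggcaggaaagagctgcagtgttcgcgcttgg
The Cldn4 promoter (chr5:134946885-134947184, minus strand) held none of the 5 motifs searched on both strands. These were AACCGG for GRHL factors, GTTAAT for HNF1, TTTATG for CDX, CAAAGT for HNF4 and TATAAA, which 6.83%, 7.10%, 11.9%, 14.4% and 13.6% of the 32851 promoters of this length held. Of the members with a promoter in the table, Cldn7 and Ocln also held AACCGG, each at 1 of its 2 listed starts.

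AU-rich windows of 30 bases are shown for Ocln and Cldn23, since among the members Ocln had the most ATTTA pentamers in its 3′ untranslated region and Cldn23 the most per length. ATTTA is printed in capitals.
Ocln 3′ window: ATTTAagaattgtaaatatatATTTAcgtt
Cldn23 3′ window: ttcATTTAtcttttaaggagttttactttt
The Ocln window lies on the minus strand at chr13:100497975-100498004 and the Cldn23 window on the minus strand at chr8:35825263-35825292, both in GENCODE M21 on GRCm38. Ocln held 7 ATTTA pentamers in 2307 bases of 3′ untranslated region, Cldn23 held 4 in 730 bases, Tjp1 held 4 in 1408 bases, F11r held 2 in 1509 bases and Cldn4 held 1 in 994 bases. Cldn2, Cldn3, Cldn7 and Cldn15 held none. Of 20669 genes with a 3′ untranslated region of at least 30 bases, 64.6% held at least 1. These counts describe letters, and binding of HuR was not measured. On the same build Cldn2 spans chrX:139800828-139811386 (plus strand), Cldn3 chr5:134986214-134987472 (plus), Cldn4 chr5:134945119-134946934 (minus), Cldn7 chr11:69964779-69967885 (plus) and Cldn15 chr5:136966616-136975858 (plus). Cldn23 spans chr8:35824712-35826559 (minus), Tjp1 chr7:65296165-65527781 (minus), Ocln chr13:100496507-100552718 (minus) and F11r chr1:171437535-171464603 (plus). Cldn3, Cldn4 and Cldn23 have 1 exon each.

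Along the axis from crypt to villus, Cldn2 was the crypt gene and Cldn4 the tip gene. Crypt-gated and enterocyte-gated sums of the same 6 libraries were compared to ask which junction RNAs differ between the 2 compartments, with edgeR's quasi-likelihood test on the UMI counts, scaled by TMM, which sets the bulk of genes of the libraries to a common level. A gene was called at a Benjamini-Hochberg adjusted p under 0.05. Of the 9 members, 1 was called higher in crypt-gated cells and 7 were called lower, beside 30.4% of the 11123 tested genes called higher and 41.0% called lower (71.4% called in all). The median of the 9 log2 fold changes was -1.97, beside -0.28 over all tested genes. Crypt-gated sums held only 239867 to 520126 UMIs each, from 14 to 32 cells, and 1 cell gave up to 72.7% of the Cldn4 UMIs and up to 68.0% of the Cldn2 UMIs of a library.

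Cldn2, a claudin that forms a pore for cations and water, stood at 87.0, 46.7 and 71.1 CPM in crypt-gated cells of the controls and at 77.5, 40.7 and 66.7 CPM in those labelled IE-HuR-/-. In enterocyte-gated cells the same libraries held 0.555, 0.424, 0.283, 0.735, 0.739 and 0.640 CPM, so that every crypt sum lay above every enterocyte sum. The log2 fold change was 6.04 ± 0.31 (SE, 6 libraries in each class) with an edgeR adjusted p of 3.6e-15. Cldn2 UMIs were found in 33.3% of crypt-gated cells, 28.6% of enteroendocrine-gated cells and 0.698% of enterocyte-gated cells, against 0.152% of T or NK cells, whose median depth of 4429 to 5792 UMIs was below that of enterocyte-gated cells at 10370.0 UMIs or more. Enteroendocrine-gated cells formed a second site, with 17.4, 30.1 and 19.3 CPM in the controls and 32.8, 26.5 and 24.2 CPM in the libraries labelled IE-HuR-/-.

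Cldn4, a claudin regarded as tightening the seal, was the lowest of the members relative to the villus, with 7.68, 10.0 and 21.1 CPM in crypt-gated cells of the controls and 68.2, 9.40 and 41.7 CPM in those labelled IE-HuR-/-, against 236 to 371 CPM in enterocyte-gated cells (log2 fold change -4.46 ± 0.28, adjusted p 1.4e-10). The T or NK cells held 14.6 to 25.2 CPM of Cldn4, which overlapped the crypt range. By level, Cldn4 in crypt-gated cells was thus not distinguishable from that background class in 4 of the 6 libraries. Cldn23 (-2.80 ± 0.26), Ocln (-2.33 ± 0.17), F11r (-2.31 ± 0.22), Tjp1 (-1.97 ± 0.21), Cldn7 (-1.81 ± 0.18) and Cldn15 (-1.79 ± 0.17) were lower in crypt-gated cells too, and the crypt and enterocyte ranges did not overlap for any of them. Cldn3, a sealing claudin, was not called, at -0.05 ± 0.16 (adjusted p 0.79).

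The value for Cldn3 depended on the scaling. Its unscaled level was 279 to 511 CPM in crypt-gated and 196 to 219 CPM in enterocyte-gated cells, and without TMM scaling its log2 fold change was 0.78 ± 0.14 and called (adjusted p 1.4e-05). Leaving out TMM moved the median of all genes from -0.28 to 0.54 and left the other 8 members with their direction and call. The falls in crypt-gated cells were smaller without it, from -3.60 for Cldn4 to -0.96 for Cldn15, and the rise of Cldn2 was larger, at 6.88. With the marker thresholds of all gates doubled Cldn3 was called lower in crypt-gated cells (-1.15, adjusted p 0.0018).

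**Figure D1:**
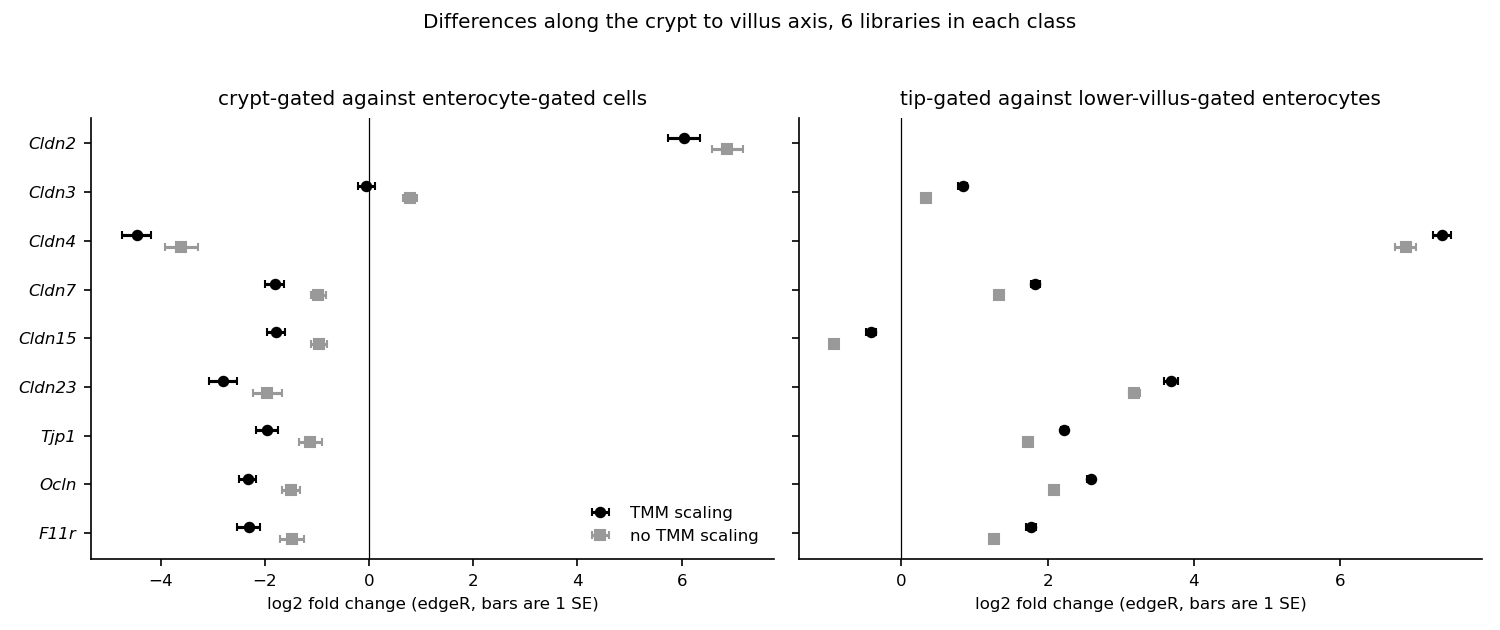
Log2 fold changes of the 9 genes between crypt-gated and enterocyte-gated cells (left) and between tip-gated and lower-villus-gated enterocytes (right), with points for the edgeR estimate, bars of 1 SE, black circles with TMM scaling and grey squares without it. Cldn2 lies at 6.04 on the left, Cldn4 at 7.39 on the right, and Cldn3 on the left moves from -0.05 to 0.78 between scalings. Cldn2 is absent on the right because too few UMIs passed the filter.

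Within the villus, tip-gated and lower-villus-gated enterocytes were compared in the same way. Of the 9 members 8 passed the filter on low counts, of which 7 were called higher at the tip and 1 lower, beside 39.8% and 42.9% of the 9678 tested genes (82.7% called in all). The median of the 8 was 2.03, beside -0.06 over all genes.

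Cldn4 had the steepest slope of the members. Its level in tip-gated cells was 1050.3, 1110.4 and 1059.0 CPM in the controls and 979, 1059.8 and 978 CPM in the libraries labelled IE-HuR-/-, whereas lower-villus-gated cells held 6.44, 8.32 and 6.92 CPM and 10.8, 9.01 and 11.96 CPM. The ranges were separate by a wide margin, with a log2 fold change of 7.39 ± 0.12 (adjusted p 1.9e-13). The lower-villus level was below the 14.6 to 25.2 CPM of T or NK cells, and so within the level of that background class. Free RNA and droplets of mixed cells were not told apart in that class. Its median depth of 4429 to 5792 UMIs was below that of lower-villus-gated cells, at 9231.5 UMIs or more.

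Cldn23, a less studied claudin of surface epithelium, followed with 106, 106 and 129 CPM at the tip in the controls and 166, 148 and 163 CPM in the libraries labelled IE-HuR-/-, against 13.3 to 16.7 CPM in lower-villus-gated cells (3.69 ± 0.09). Ocln, which encodes occludin, rose from 51.1 to 66.7 CPM in lower-villus-gated cells to 235 to 266 CPM at the tip (2.59 ± 0.05). Tjp1, which encodes the scaffold ZO-1, rose from 33.6 to 43.2 CPM to 108 to 140.4 CPM (2.23 ± 0.05). Cldn7, a claudin of both the junction and the lateral membrane, rose from 1449 to 2064 CPM to 3913 to 4912 CPM (1.83 ± 0.06). F11r, which encodes JAM-A, rose from 116 to 136 CPM to 289.9 to 317 CPM (1.77 ± 0.07), and Cldn3 rose from 199 to 239.7 CPM to 241 to 319 CPM (0.84 ± 0.06, or 0.33 ± 0.05 without TMM).

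Cldn15, a claudin that forms a sodium channel, went the other way. It stood at 426, 402 and 439 CPM in lower-villus-gated cells of the controls and 433, 425 and 425 CPM in those labelled IE-HuR-/-, and at the tip at 204, 204 and 215 CPM and 248, 241 and 238 CPM. Every tip sum was below every lower-villus sum, and the log2 fold change was -0.42 ± 0.07 (adjusted p 8.8e-05), or -0.92 ± 0.05 without TMM, which moved the median of all genes to -0.56. All 8 tested members kept their direction and call without TMM. Cldn2 gave 92 UMIs in lower-villus-gated cells and 3 in tip-gated cells, a ratio per UMI of 26.2 with an exact 95% counting interval of 8.67 to 129, which covers counting error only and is not a test between animals. Against T or NK cells, with 6 UMIs, the ratio of the lower-villus level was 5.82 (2.57 to 16.3).

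**Figure D2:**
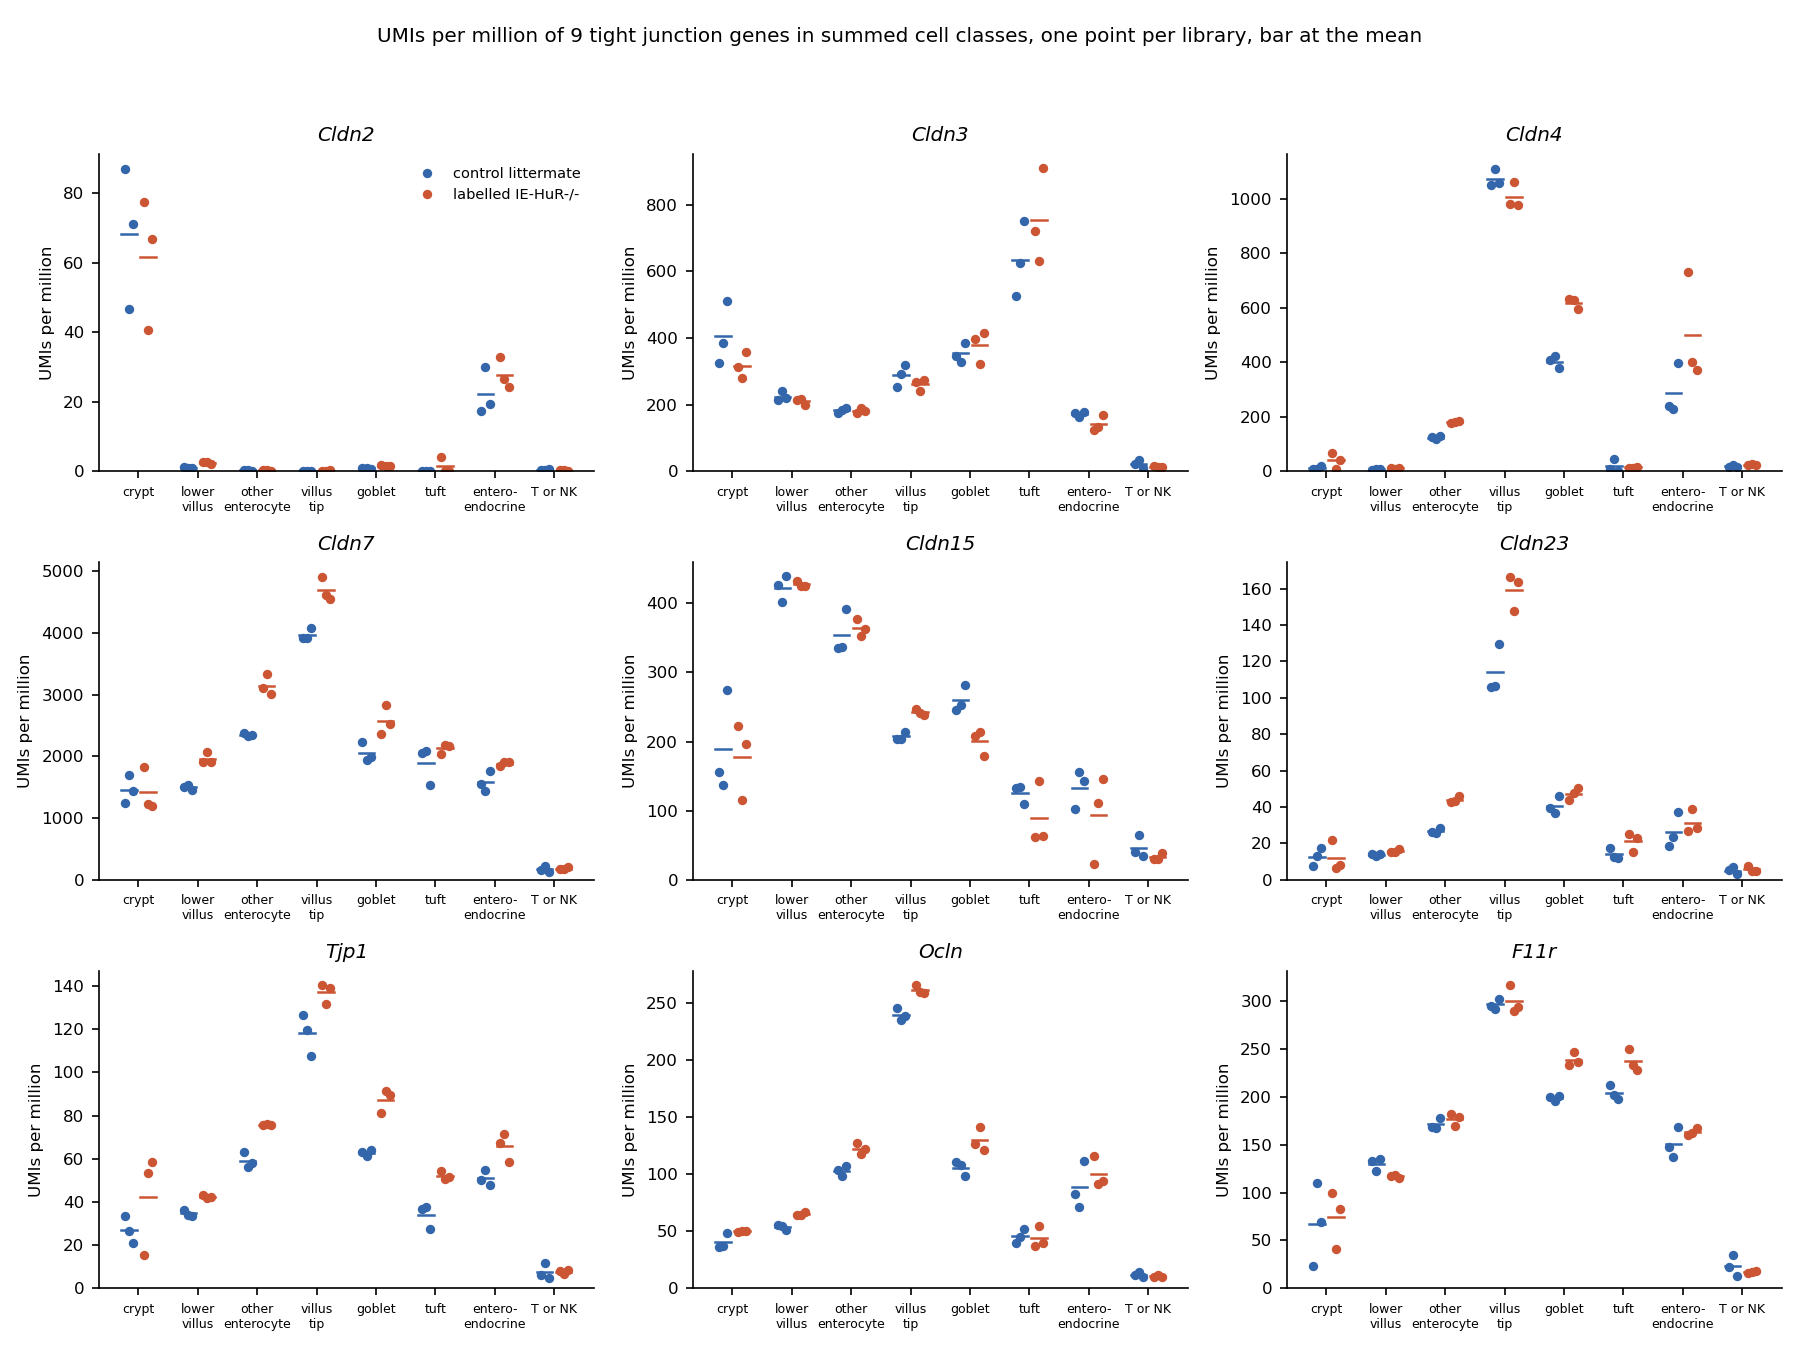
CPM of each of the 9 genes (vertical axis, linear and from 0, scaled per gene) in the summed cells of 8 gated classes, with 1 point per library, control littermates in blue, libraries labelled IE-HuR-/- in red and bars at the means of 3 libraries. Cldn2 is highest in crypt-gated cells (40.7 to 87.0) and Cldn4 in tip-gated cells (978 to 1110.4), and T or NK cells show the background.

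Across the epithelial classes, the top class of each of the 9 members was separate from the next over the 6 libraries. How many of all genes had a separate top class was not counted. The order was read within each gene, with T or NK cells as background. Cldn2 was highest in crypt-gated cells (65.0 ± 17.9 CPM, SD, n = 6), separate from enteroendocrine-gated cells (25 ± 6.0), which were in turn separate from lower-villus-gated cells (1.79 ± 0.799), and the classes below overlapped. Cldn3 was highest in tuft-gated cells (694 ± 132), separate from goblet-gated (367 ± 38.4) and crypt-gated cells (362 ± 82.0), which overlapped each other. Cldn4 was highest at the tip (1039.5 ± 51.6), separate from goblet-gated (510.5 ± 119.7) and enteroendocrine-gated cells (395 ± 182), which overlapped, and the remaining enterocytes were separate below them (152 ± 31.4), followed by an overlapping group of crypt-gated, tuft-gated and lower-villus-gated cells. Cldn7 was highest at the tip (4333 ± 419), and its levels from the remaining enterocytes (2749 ± 449) down to crypt-gated cells (1438 ± 268) overlapped from neighbour to neighbour.

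Cldn15 was highest in lower-villus-gated cells (425 ± 12.7), separate from the remaining enterocytes (359.8 ± 22.1), which were separate from goblet-gated (230.4 ± 36.7) and tip-gated cells (225 ± 19.6), and every step below overlapped. Cldn23 (137 ± 26.9), Tjp1 (128 ± 12.5), Ocln (251 ± 12.8) and F11r (299 ± 9.93) were all highest in tip-gated cells and separate from the next class, which was the goblet-gated class for the first 3 and the tuft-gated class for F11r (221 ± 19.97). For Cldn23 the crypt-gated range of 6.27 to 21.7 CPM overlapped that of T or NK cells at 3.08 to 7.56 CPM. Tuft-gated cells, which hold chemosensory cells, thus led for Cldn3. For F11r they came second but overlapped goblet-gated cells (219 ± 22.4), and they held Ocln (44.8 ± 7.12) near the crypt level (45.1 ± 6.86). No label test was made in tuft-gated or enteroendocrine-gated cells, whose sums came from 13 to 35 and 23 to 53 cells per library.

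Genes with the most similar pattern over the 36 sums of 6 libraries and 6 classes were named by Pearson's r of log2(CPM + 1), as a description without a test. The 6 points of a class share its gate, so that the 36 points are not independent. Cldn2 was closest to Fads2 (r = 0.95), Hmga2 (0.95) and Aqp4 (0.94), and Cldn4 to Zfand2a (0.94), Ptger4 (0.93) and Ly6m (0.93). Cldn7 was closest to Serpinb1a (0.95), the desmosomal cadherin gene Dsc2 (0.94) and Mcl1 (0.93). Cldn23 was closest to Pgm2 (0.96), Serpinb1a (0.95) and Tuft1 (0.95), and Ocln to Cast (0.96), Slc25a22 (0.96) and Ipmk (0.96). F11r was closest to Lmtk2 (0.95), Myzap (0.94) and Ptpre (0.94), and Cldn3 to Tspan8 (0.93), Ptp4a2 (0.90) and Cdk2 (0.87). Cldn15 was closest to Smlr1 (0.90), Cds1 (0.88) and the junction-associated myosin kinase gene Mylk (0.87), and Tjp1 to Fam83b, Pnpla7 and Herc4 (0.89, 0.89 and 0.88).

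The labels were then compared within enterocyte-gated cells, to ask whether junction RNAs differ between the mice. All 9 members were called higher in the libraries labelled IE-HuR-/-, beside 28.8% of 12206 tested genes called higher and 31.2% called lower (60.0% called in all). The median of the 9 log2 fold changes was 0.62, beside -0.03 over all genes. For 7 of the 9 the CPM of the 2 labels did not overlap. Here and below, genes with separate libraries were not counted over all genes, so that such counts have no background share. P-values measure the spread between the libraries of 1 label, each from 1 animal. In such sums, more cells with a given RNA and more RNA per cell cannot be told apart.

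Cldn23 rose from 36.0, 34.5 and 41.4 CPM in the controls to 68.1, 64.0 and 65.7 CPM in the libraries labelled IE-HuR-/- (log2 fold change 1.02 ± 0.06, SE, 3 against 3 libraries, adjusted p 1.1e-14). Cldn4 rose from 243, 236 and 251 CPM to 343, 371 and 324 CPM (0.70 ± 0.05, adjusted p 6.5e-14). Cldn7 rose from 2420.4, 2378 and 2397 CPM to 3325, 3388 and 3107 CPM (0.64 ± 0.04). All 3 libraries of each label lay apart for these genes.

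Tjp1 rose from 66.9, 60.3 and 59.8 CPM to 85.3, 83.1 and 82.4 CPM (0.62 ± 0.05) and Ocln from 115, 108 and 114 CPM to 149, 143 and 141 CPM (0.55 ± 0.04). F11r rose from 181, 175 and 188 CPM to 203, 189.8 and 190.5 CPM, a smaller step (0.29 ± 0.04). For these 3 genes too the labels did not overlap.

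Cldn3 and Cldn15 lost their call without TMM scaling. Cldn3 stood at 196, 212 and 219 CPM against 205, 209 and 206 CPM, and Cldn15 at 335, 333 and 375 CPM against 356, 339.7 and 349 CPM, so that the labels overlapped for both. Their log2 fold changes were 0.18 ± 0.04 and 0.19 ± 0.04 with TMM, and -0.02 (adjusted p 0.76) and 0.00 (0.96) without it, where the median of all genes moved from -0.03 to -0.22. The other 7 kept their call without TMM at smaller values, such as 0.82 for Cldn23, 0.51 for Cldn4, 0.36 for Ocln and 0.10 for F11r (adjusted p 0.035). Cldn2 was called at 0.91 ± 0.28 (adjusted p 0.0062), but on 59 UMIs in the controls and 76 in the libraries labelled IE-HuR-/-, and its levels of 0.283 to 0.739 CPM lay within the range of T or NK cells up to 0.770 CPM.

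The share of enterocyte-gated cells that passed the tip gate was apart between the labels as well. That gate is a fixed cut on the tip list, so that more tip cells and more tip-list RNA per cell cannot be told apart. Tip-gated cells made up 13.2% ± 0.988 (SD, n = 3) of enterocyte-gated cells in the controls and 21.4% ± 1.18 in the libraries labelled IE-HuR-/- (two-sided exact permutation p 0.1, the smallest that 3 against 3 allow), and lower-villus-gated cells 19.3% ± 2.11 and 17.2% ± 1.74 (exact permutation p 0.3). Tip-gated cells gave 67.3% to 70.5% of the enterocyte UMIs of Cldn4 in the controls and 68.0% to 73.7% in the others. For Cldn23 these shares were 44.7% to 52.3% and 56.0% to 60.3%, and for Ocln 31.6% to 34.9% and 41.5% to 47.0%. Each position on the villus was therefore also compared on its own, as a comparison chosen after the data had been seen.

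**Figure D3:**
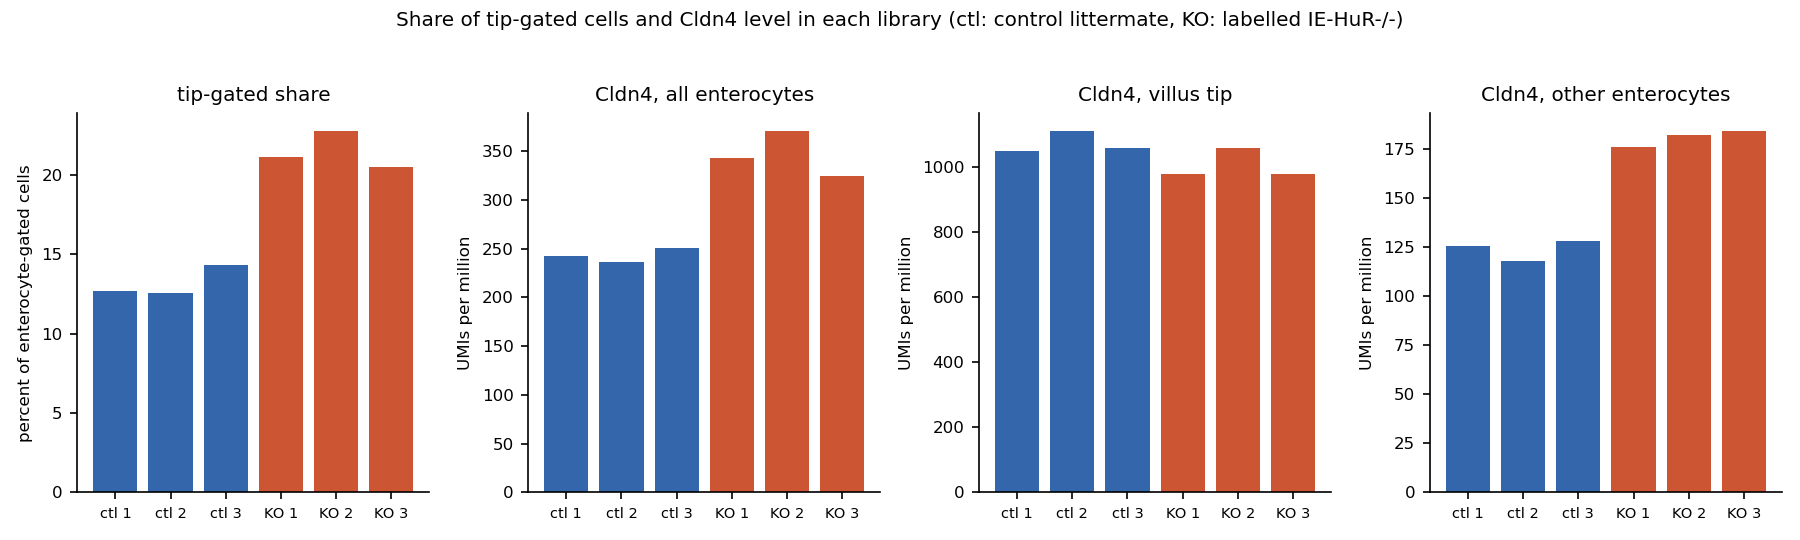
Percentage of enterocyte-gated cells that were tip-gated, and the level of Cldn4 in CPM in all enterocyte-gated cells, in tip-gated cells and in enterocytes outside both villus gates, with 1 bar per library from 0, control littermates in blue (ctl) and libraries labelled IE-HuR-/- in red (KO). Cldn4 is apart between the labels in all enterocytes and outside the gates, and overlaps between the labels at the tip (978 to 1110.4).

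In tip-gated cells alone, Cldn4 did not pass the test, with 1050.3, 1110.4 and 1059.0 CPM in the controls and 979, 1059.8 and 978 CPM in the libraries labelled IE-HuR-/- (log2 fold change 0.05 ± 0.05, adjusted p 0.35). Cldn3 did not pass either (0.01 ± 0.08). No fit without TMM was run for tip-gated cells alone. The 6 members called there were all higher in the libraries labelled IE-HuR-/-, beside 22.5% of 8930 genes. They were Cldn23 (114 ± 13.4 against 159 ± 10.1 CPM, 0.63 ± 0.07), Cldn7 (3972 ± 99.2 against 4695 ± 190.3 CPM, 0.39 ± 0.04) and Cldn15 (208 ± 6.08 against 242 ± 5.05 CPM, 0.37 ± 0.05). The others were Tjp1 (118 ± 9.65 against 137 ± 4.65 CPM, 0.36 ± 0.06), Ocln (240 ± 5.55 against 262 ± 3.57 CPM, 0.28 ± 0.05) and F11r (0.17 ± 0.05). For F11r the libraries overlapped, at 297 ± 5.07 against 300 ± 14.5 CPM before TMM scaling. The summed tip list was 18793 to 20042 CPM in tip-gated cells of the controls and 18879 to 20012 CPM in the others. This list set the tip gate, so that its level there describes the selection and does not check that the cells match.

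In lower-villus-gated cells alone, 6 of 9 members were called higher, beside 18.3% of 10165 genes. Cldn7 stood at 1511, 1542 and 1449 CPM against 1910.4, 2064 and 1909 CPM (0.50 ± 0.06), Tjp1 at 36.3, 34.1 and 33.6 CPM against 43.2, 41.9 and 42.4 CPM (0.41 ± 0.08), and Ocln at 55.3, 54.5 and 51.1 CPM against 63.9, 64.3 and 66.7 CPM (0.39 ± 0.07). Cldn23 was called at 0.29 ± 0.11 (13.8 ± 0.444 against 15.6 ± 0.941 CPM, edgeR adjusted p 0.034). Cldn2 was called at 1.27 ± 0.32 (adjusted p 0.0020) on 36 UMIs against 56, and Cldn4 at 0.66 ± 0.15 at levels below those of T or NK cells. F11r was at -0.04 ± 0.06, Cldn3 at 0.02 ± 0.06 and Cldn15 at 0.13 ± 0.05 (adjusted p 0.050), none of them called. By CPM, which is not scaled by TMM, F11r was lower without overlap, at 123 to 135.5 in the controls and 116 to 119 in the others. No fit without TMM was run for lower-villus-gated cells alone. The summed tip list was higher in these lower-villus-gated cells, at 838 to 911 CPM in the controls and 938 to 975 CPM in the others. The lower-villus-gated cells also differed in mitochondrial UMIs, with medians of 6.06% to 8.92% in the controls and 2.77% to 3.92% in the others. Their median depth was 12783 to 18682 UMIs in the controls and 9231.5 to 10536 UMIs in the others. The part of any of these differences in the result was not tested.

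In enterocytes outside both villus gates, all 8 tested members were called higher, beside 28.1% of 11254 genes, led by Cldn23 (26.8 ± 1.30 against 43.9 ± 1.62 CPM, 0.89 ± 0.06), Cldn4 (124 ± 5.22 against 180.4 ± 4.25 CPM, 0.72 ± 0.04) and Cldn7 (0.60 ± 0.05). The libraries of the labels overlapped for Cldn3 (183 ± 6.55 against 182 ± 7.82 CPM, 0.17 ± 0.04), Cldn15 (0.22 ± 0.05) and F11r (0.22 ± 0.04). No fit without TMM was run for this class of cells. There the summed tip list was itself higher, at 2686 to 2813 CPM in the controls and 3337 to 3429 CPM in the others. Median depth in these cells was 8991 to 13745.5 UMIs in the controls and 7679 to 8487 UMIs in the others. Median mitochondrial UMIs were 7.39% to 9.35% in the controls and 9.54%, 3.47% and 3.78% in the others. The part of any of these differences in the result was not tested. Cldn7, Tjp1, Ocln and Cldn23 were thus called higher in each of the 3 villus positions.

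**Figure D4:**
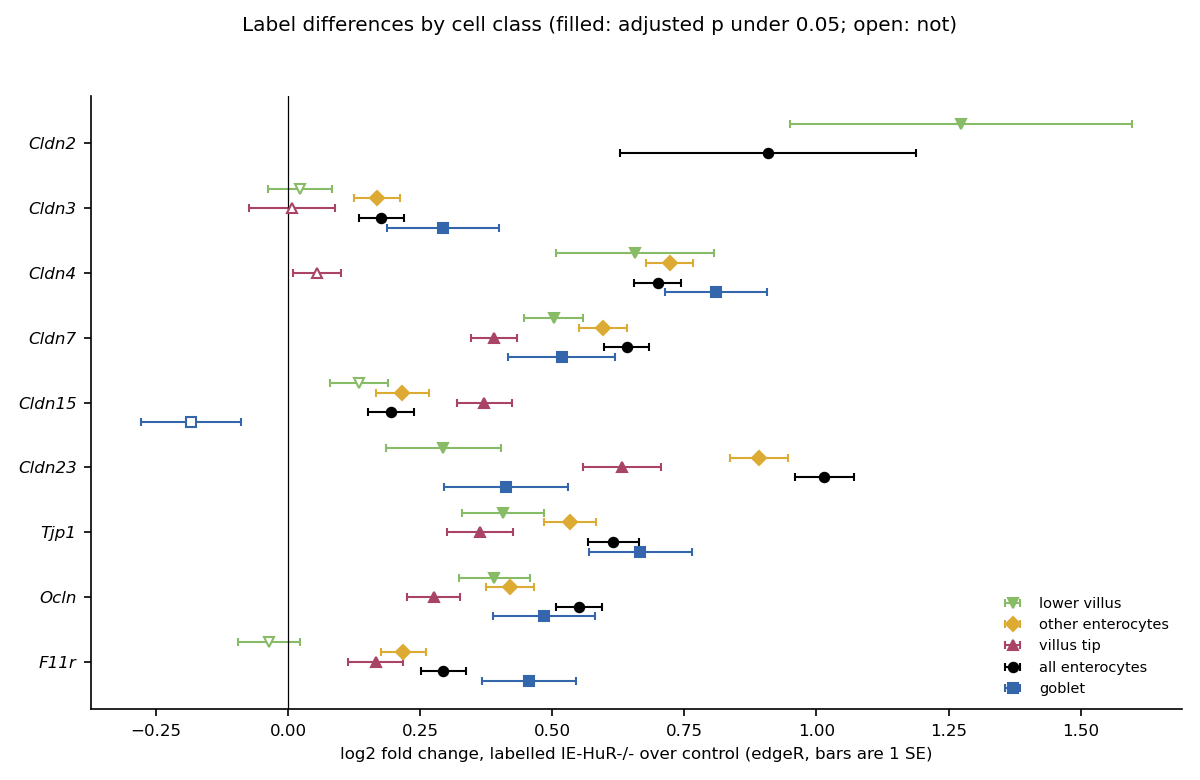
Log2 fold change of each gene between libraries labelled IE-HuR-/- and control littermates in lower-villus-gated cells, enterocytes outside both gates, tip-gated cells, all enterocyte-gated cells and goblet-gated cells, with bars of 1 SE, filled symbols for an adjusted p under 0.05 and open symbols otherwise. Cldn4 is near 0 at the tip (0.05) and 0.70 in all enterocytes, and Cldn7, Tjp1 and Ocln are above 0 in all 5 classes.

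Whether the tip to lower-villus slope differed between the labels was tested as an interaction. Of the 9 members 4 were called, beside 17.7% of 10389 genes. The slope of Cldn4 was less steep in the libraries labelled IE-HuR-/-, with log2 ratios of tip to lower villus (pseudocount of 1 CPM) of 6.90 to 7.14 in the controls and 6.24 to 6.73 in the others, and a fitted difference of -0.49 ± 0.12 (adjusted p 0.0034). The fall of Cldn15 towards the tip was shallower (0.35 ± 0.06, adjusted p 0.00017), and the slopes of Cldn23 (0.45 ± 0.11, adjusted p 0.0042) and F11r (0.31 ± 0.07, adjusted p 0.0016) were steeper. The libraries of the labels did not overlap for any of the 4. Without TMM, Cldn4 (-0.64) and Cldn15 (0.20) were called and Cldn23 (0.30, adjusted p 0.061) and F11r (0.17, adjusted p 0.10) were not. Cldn7 (0.00 ± 0.06), Ocln (-0.01 ± 0.08), Tjp1 (0.07 ± 0.09), Cldn3 (0.10 ± 0.09) and Cldn2 (2.28 ± 1.82) were not called. The log2 ratios of Ocln without TMM were apart, at 2.09 to 2.20 in the controls and 1.94 to 2.04 in the others. For Cldn2 the fit rested on 0 tip UMIs in the controls and 3 in the others. Its log2 ratios pointed the other way, at -1.23 to -0.90 in the controls and -1.83 to -1.34 in the others, so that no direction can be read. Leaving out the third library labelled IE-HuR-/- ended the call for Cldn4 (adjusted p 0.11), as did leaving out the 5% of cells with the most UMIs (0.11) and doubled gates (0.67), and its lower-villus level was within the background. Cldn23 lost its call with DESeq2 (adjusted p 0.080) and doubled gates (0.051), and F11r with doubled gates (0.52).

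In crypt-gated cells no member was called between the labels, beside 0.136% of 4416 genes. Cldn4 and Cldn23 did not pass the filter on low counts, and none of the 7 tested members had an unadjusted edgeR p under 0.05, whereas 274 of all genes did, and DESeq2 also called 0 members. The members' log2 fold changes ran from -0.44 ± 0.23 for Cldn3 to 0.55 ± 0.46 for Tjp1, with Cldn2 at -0.25 ± 0.34. On simulated counts of this comparison, 86 of 93 genes changed by 2 on the log2 scale were recovered, and 20 of 89 changed by 1. Recovery at the spread of each single member, whose SE reached 0.51 for F11r, was not tested. Lgr5, a stem cell marker, had a mean of 38.7 CPM in crypt-gated cells of the controls and 5.56 CPM in the others. It is 1 of the 9 genes of the stem list, which helps to set the crypt gate. The summed stem list overlapped, at 2081 to 3082 CPM and 1702 to 2610 CPM, as did the tip list, at 143 to 427 CPM and 304 to 1459.8 CPM. The stem gate was passed by 9 of 14, 8 of 21 and 6 of 14 crypt-gated cells in the controls. In the others it was passed by 7 of 21, 6 of 32 and 7 of 27. Median depth was 5794 to 17464 UMIs in the controls and 3640 to 5926 UMIs in the others. The part of these differences in the result was not tested.

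The crypt to enterocyte ratio was likewise not called as different between the labels for any member, beside 0.503% of 12135 genes. Cldn7 (-0.85 ± 0.29), Cldn3 (-0.68 ± 0.29), Cldn2 (-1.26 ± 0.53) and Cldn23 (-1.22 ± 0.61) had an unadjusted p under 0.05, as did 1055 of all genes, and DESeq2 called 0 members.

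Goblet-gated cells, which secrete mucus, were compared between the labels in the same way. Of the 8 tested, 7 were called higher in the libraries labelled IE-HuR-/-, beside 15.0% of 9017 genes called higher and 12.3% called lower (27.3% called in all). Cldn4 rose from 407, 424 and 377 CPM to 631, 629 and 595 CPM (0.81 ± 0.10, adjusted p 1.6e-06). Tjp1 rose from 63.0, 61.5 and 64.2 CPM to 81.1, 91.3 and 89.5 CPM (0.67 ± 0.10), and Cldn7 from 2228, 1947 and 1989 CPM to 2365, 2834 and 2518 CPM (0.52 ± 0.10). The labels did not overlap for Cldn4, Tjp1, Cldn7, Ocln (0.48 ± 0.10) or F11r (0.46 ± 0.09).

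Cldn23 (0.41 ± 0.12) and Cldn3 (0.29 ± 0.11, adjusted p 0.044) were called in goblet-gated cells with overlapping libraries, and neither was called without TMM (adjusted p 0.17 and 0.51). Leaving out 1 library also ended the call for Cldn3 in 4 of 6 cases (control 1 or 2, IE-HuR-/- 1 or 3, adjusted p 0.15 to 0.18) and for Cldn23 in 3 (control 1 or 2, IE-HuR-/- 3, adjusted p 0.054 to 0.066). Cldn15 pointed down, from 246, 253 and 282 CPM to 208, 214 and 179.6 CPM with no overlap, and was not called with TMM (-0.18 ± 0.10, adjusted p 0.16) but was called without it (-0.38 ± 0.10, adjusted p 0.0059) and, with TMM, when the gate thresholds were doubled (-0.29, adjusted p 0.025). Cldn2 was too low to test. The tip list in goblet-gated cells was 2466 to 3416 CPM in the controls and 3413 to 4574 CPM in the others, whereas the enterocyte list was lower without overlap, at 46411 to 49141 CPM in the controls and 30658 to 41111 CPM in the others. The part of either in the result was not tested.

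Other junction genes, from lists of the apical junction, were read beside the members. Of 21 tested genes of scaffolds, MARVEL proteins, JAMs and tricellular junctions, 15 were called higher at the tip and 4 lower, with a median of 1.02. All 11 tested adherens junction genes were called higher (median 1.28), as were 6 of 7 desmosome genes (median 2.25), 1 being lower. Of all tested genes 39.8% were called higher there and 42.9% lower, with a median of -0.06. Dsp, which encodes desmoplakin, rose from 151 to 1286 CPM on average (3.59 ± 0.06), Cdh1, which encodes E-cadherin, from 185 to 886 CPM (2.76 ± 0.07) and the polarity gene Pard6b from 26.8 to 99.6 CPM (2.38 ± 0.07). Ybx3, whose protein binds ZO-1 and also acts in proliferating cells, fell by 1.67 ± 0.12 on the log2 scale, and was the only list gene called higher in crypt-gated cells, at 303 against 13.5 CPM (3.65 ± 0.15). In that comparison 16 of 22 genes of the scaffold list, 10 of 11 of the adherens list and 6 of 8 of the desmosome list were called lower in crypt-gated cells. Of all 11123 genes tested between crypt and enterocyte, 41.0% were called lower and 30.4% higher, with a median of -0.28. Of 17 other claudins, only Cldn12 passed the filter on low counts, at 11.1 ± 0.243 CPM in enterocytes of the controls, and it was called in no comparison.

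Between the labels in enterocyte-gated cells, 13 of 23 tested genes of the scaffold list were called higher and 3 lower (median 0.20), 9 of 11 adherens genes higher and 1 lower (median 0.33), and 7 of 8 desmosome genes higher and 1 lower (median 0.26), beside 28.8% of all genes higher, 31.2% lower and a median of -0.03. Pard6b (49.6 ± 1.90 to 74.4 ± 1.43 CPM, 0.78 ± 0.05), Dsc2 (0.53 ± 0.04), Pkp2 (0.52 ± 0.05) and Cxadr (0.52 ± 0.04) were among those that rose. Nectin1, a cell adhesion gene, fell from 12.4 ± 0.451 to 6.34 ± 0.543 CPM (-0.77 ± 0.08), and Amotl2 (-0.53 ± 0.07) and Magi1 (-0.25 ± 0.06) were also lower. In goblet-gated cells 8 of 22, 3 of 11 and 3 of 7 genes of these lists were called higher and 1, 1 and 0 lower, beside 15.0% and 12.3% of all genes, with Pard6b (0.60 ± 0.12) again among those that rose and Nectin1 (-0.58 ± 0.16) among those that fell.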

How the data were processed

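Single-cell libraries of 3 control littermates and 3 IE-HuR-/- mice were used. What the authors deposited is the count of UMIs for every gene and barcode, with no normalization, made with Cell Ranger 6.1.2 per the file headers. The submitters' notes give build mm10 and also name Seurat. The methods name another Cell Ranger version and a human reference, whereas the features are mouse genes, and the kit is given as 5′ in one source and 3′ in another.

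Cells with at least 200 genes and 2000 UMIs were gated by the percentage of UMIs on marker lists (at least 5 for enterocyte and goblet, 1.5 for enteroendocrine, 0.3 for tuft, 3 for T or NK, 0.1 for stem or 0.3 for cycling genes as crypt, and within enterocytes 1 for tip and 0.1 for lower villus). No doublet caller was run, and a version without the 5% of cells with the most UMIs was added. The 9 genes and all lists were chosen with earlier results of these data known.

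UMIs were summed per library and class. The sums were tested with edgeR 4.0.16 (R 4.3.3) by the quasi-likelihood test after TMM scaling and filterByExpr, with the library as a block where classes were compared, and genes with a Benjamini-Hochberg adjusted p under 0.05 were called. The SE given with an edgeR log2 fold change was its absolute value divided by the square root of the test's F statistic. DESeq2 1.42.0 was an alternative. Other junction genes were named when called, with libraries apart and at least 10 CPM in 1 group, as the 5 largest rises and falls per comparison, from which examples are given, and a listed gene that the rule names is not reported here. The fits were tested on simulated data. Chi-square per degree of freedom was 4.85 to 16.8 between libraries of 1 label, so that none was a copy of another. Tjp1 overlaps the predicted genes Gm44792 and Gm44794 on its own strand, and Cldn3 overlaps Wbscr25 on the other. Counting intervals cover counting error only.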

Additional observations from a re-analysis of the deposited data

Results flagged for a closer look

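The effect of the label was called different between tip-gated and lower-villus-gated enterocytes for 4 of the 9 genes, by the test of the interaction itself. Of all 10389 tested genes 17.7% were called. On the log2 scale the difference, tip minus lower villus, was -0.49 for Cldn4, 0.35 for Cldn15, 0.45 for Cldn23 and 0.31 for F11r. For Cldn4 the label values were 0.05 at the tip and 0.66 in lower-villus-gated cells, where its 6.44 to 11.96 CPM lay below the 14.6 to 25.2 CPM of T or NK cells. For Cldn15 they were 0.37 and 0.13, for Cldn23 0.63 and 0.29, and for F11r 0.17 and -0.04. Of these 4 genes, Cldn15 was called under every alternative run. Cldn4 lost its call without the 5% of cells with the most UMIs, with doubled gates and without library 3 labelled IE-HuR-/- (adjusted p 0.11, 0.67 and 0.11), Cldn23 without TMM, with DESeq2 and with doubled gates (0.061, 0.080 and 0.051), and F11r without TMM and with doubled gates (0.10 and 0.52). With 3 libraries per label, no search for single outlying libraries was made.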

How the results depend on the processing

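Of 834 values of single members under the alternatives, 762 kept their direction and side of the threshold, 26 lost the call, 4 gained it and 42 changed sign. All 104 values of the tip against lower-villus comparison kept both. Without TMM scaling the sign changed for Cldn3 between the labels in enterocytes (-0.016), for Cldn3 between crypt and enterocyte (0.78, or 0.10 with DESeq2), for the label difference of the crypt to enterocyte ratio of Tjp1 (0.20) and F11r (0.11), and for that of the tip to lower-villus ratio of Cldn3 (-0.046) and Tjp1 (-0.076). Members called in the latter comparison fell from 4 to 2 without TMM and to 1 with doubled gates, where Cldn3 was at -0.094 and Cldn4 at -0.42 (adjusted p 0.67). F11r in lower-villus-gated cells alone was at -0.036.

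Crypt-gated values were the least stable. Between the labels, doubled gates gave 0.0050 for Cldn3 and 1.31 for Cldn7, thinning gave -0.047 for F11r, and the stem list alone gave 0.035 for Cldn15 and the cycling list alone 0.035 for Cldn7. For the crypt to enterocyte ratio, doubled gates gave 0.079 for Cldn3, 0.81 for Cldn7, 0.052 for Cldn15, 0.032 for Tjp1, 1.21 for Ocln and 1.35 for F11r. There, leaving out the cells with the most UMIs gave 0.13 for Tjp1, the stem list alone gave -1.66 for Cldn4, 0.20 for Ocln and 0.023 for F11r, and the cycling list alone gave 0.20 for Tjp1 and 1 called member (Cldn4, 3.03, adjusted p 0.014) against 0.

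Leaving out each library in turn kept 9 members called in enterocytes, 0 in crypt-gated cells, 5 to 7 in goblet-gated cells, 8 between crypt and enterocyte, 8 between tip and lower villus and 3 to 4 for the tip to lower-villus ratio. Values that changed sign there ranged in crypt-gated cells from -0.47 to 0.011 for Cldn2, -0.35 to 0.0073 for Cldn7, -0.39 to 0.19 for Cldn15 and -0.29 to 0.58 for F11r. They ranged from -0.16 to 0.060 for Cldn3 between crypt and enterocyte, from -0.44 to 0.39 for Tjp1 and -0.66 to 0.37 for F11r in the crypt to enterocyte ratio, and from -0.048 to 0.051 for Cldn7 and -0.041 to 0.032 for Ocln in the tip to lower-villus ratio. In goblet-gated cells Cldn3 lost its call without control library 1 or 2 or library 1 or 3 labelled IE-HuR-/- (adjusted p 0.15, 0.16, 0.15 and 0.18), and Cldn23 without control library 1 or 2 or library 3 labelled IE-HuR-/- (0.054, 0.066 and 0.059). Except where a fit used fewer cells or libraries by construction, the cause of these changes was not tested.

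The replicate numbers were not taken to pair the libraries. Correlations of deviations were 0.11, 0.042 and 0.046 for the same numbers and -0.094 to 0.056 for different numbers. With 3 libraries per label these values cannot decide whether the numbers pair them. With the replicate block 9, 0 and 7 members were called between the labels in enterocyte, crypt and goblet-gated cells, and 7322, 5 and 2489 of all genes against 7326, 6 and 2462 without it.

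Counts over all genes moved by over 1.5 times as follows. Between the labels in enterocytes, 7326 became 3900 in tip-gated and 3547 in lower-villus-gated cells. In crypt-gated cells, 6 became 60 without a filter, 12 with DESeq2, 0 with doubled gates, without the cells with the most UMIs or by the cycling list, 1 by the stem list, and 0 to 28 without 1 library. Between crypt and enterocyte, 7941 became 4549 with doubled gates. For the crypt to enterocyte ratio, 61 became 94 without a filter, 16 with DESeq2, 1 with doubled gates, 14 without the cells with the most UMIs and 13 to 135 without 1 library. For the tip to lower-villus ratio, 1838 became 770 with DESeq2 and 866 with doubled gates.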

Other observations

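Tjp1, which encodes ZO-1, was also separate between the labels in tuft-gated cells, which were not tested, with 36.9, 37.6 and 27.5 CPM in the controls and 54.2, 50.7 and 51.3 CPM in the libraries labelled IE-HuR-/-, from 13 to 35 cells each. In enteroendocrine-gated cells Tjp1 stood at 50.1, 54.6 and 47.9 CPM against 67.5, 71.2 and 58.4 CPM, also without overlap, and Cldn4 at 239, 228 and 399 CPM against 731, 402 and 370.1 CPM, with overlap. Tjp1 was not alone in this. F11r was apart in tuft-gated cells (198 to 212 against 228 to 250 CPM) and Cldn7 in enteroendocrine-gated cells (1441 to 1759 against 1844 to 1908 CPM).

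Nectin1, which encodes a cell adhesion protein of the adherens junction, was the list gene with the largest fall between the labels in enterocytes outside both villus gates, from 11.1 ± 1.17 to 3.46 CPM (-1.50 ± 0.12). It fell from 10.5 to 3.998 CPM in lower-villus-gated cells (-1.24 ± 0.17) and from 20.4 to 14.7 CPM at the tip (-0.32 ± 0.12), and its tip to lower-villus slope was steeper in the libraries labelled IE-HuR-/- (1.04 ± 0.20, adjusted p 0.00031). The slope differed in the same direction for Prkci (0.49 ± 0.14), Pkp2 (0.48 ± 0.12), Pard6b (0.35 ± 0.09) and Cdh1 (0.26 ± 0.06), and in the other for Evpl (-0.63 ± 0.23) and Epcam (-0.23 ± 0.06). In crypt-gated cells none of the 15 tested genes of the scaffold list, 10 of the adherens list and 6 of the desmosome list was called between the labels. Of all 4416 genes tested there, 0.136% were called.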
